A study of Mus musculus with 8 samples.

Results

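The nuclear receptor superfamily was examined in the dental papilla cells as 46 genes, taken from the count table of 22609 gene symbols by their membership of the family. This choice was made with earlier results of these data known. The set holds the receptors for retinoids, thyroid hormone, vitamin D, steroids, fatty acids, oxysterols and bile acids, together with orphan receptors such as Rorb, and all 46 symbols were found. The cells were bulk cultures of immortalized mouse dental papilla lines. The floxed cells (iBmp2 fx/fx) carry Bmp2 alleles flanked by loxP sites and not recombined, and the knock-out cells (iBmp2 ko/ko) carry the deletion of Bmp2, the ligand whose loss in tooth mesenchyme the study set out to profile. Each genotype is an immortalized line, so genotype cannot be told apart from any other difference between the lines. Total RNA gave 1 library per genotype at 6, 24, 48 and 72 h of culture, 8 libraries in all. The methods of the study list 6, 48 and 72 h, so the comparisons use these 6 libraries, 3 per genotype, and the libraries of 24 h are shown apart. The culture medium of the sequenced cells was not given. The differentiation medium of the study's staining assays held dexamethasone, a ligand of the glucocorticoid receptor Nr3c1.

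Nuclear receptors are transcription factors that bind DNA through zinc fingers, and most carry a pocket for a small lipophilic ligand. Many bind repeats of the hexamer AGGTCA, often as heterodimers with a retinoid X receptor, and exchange corepressors for coactivators when the ligand arrives. The retinoic acid, vitamin D and glucocorticoid receptors are known for their action on bone and tooth cells, Pparg for fat cell formation, the liver X receptors for cholesterol efflux, and the Ror and Rev-erb receptors for the opposite arms of the circadian clock. In bulk RNA, fewer cells of a type and less RNA per cell cannot be told apart.

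The libraries held 25890110 to 32415665 counted reads (median 29985177). Markers of dental mesenchyme were present, with 14 of 16 at 1 CPM (counts per 1000000 reads counted on genes) or more on average, while Lhx8 and Barx1 had at most 3 counts in every library. The summed level of the 16 markers did not overlap between the genotypes, nor did the levels of 19.3% of all single genes tested. The sum was 7310 to 9330 CPM in the floxed libraries of 6, 48 and 72 h and 9620 to 13900 CPM in the knock-out libraries. At 24 h it was 8600 and 8750 CPM. Col1a1, Col1a2 and Vim held most of the sum, so it says little about the other markers. Of the 16, 1 was higher and 1 lower in the knock-out cells, with an absolute log2 fold change above 1 and an edgeR p under 0.05. The part of the difference in the sum in the results was not tested. Of the 9 odontoblast markers, 4 averaged 1 CPM or more, and Dspp and Ibsp had at most 3 counts in every library. None of 10 dental epithelium markers averaged 1 CPM, and all 5 adipocyte markers had at most 3 counts in every library. Bmp2 had 1 read in the floxed library of 24 h and 0 in the other libraries, so the targeted gene gives no check of the genotype labels. The library labelled knock-out at 24 h lay, on the log2 scale, nearer to the floxed mean of the 6 libraries than to the knock-out mean for 19 of the 29 nuclear receptor genes tested (65.5%), beside 64.9% of all genes tested and 88.9% of the 964 genes with an absolute log2 fold change above 1 and a p under 0.05 between the genotypes. It is therefore called the library labelled knock-out at 24 h throughout, and the results for the receptors past a limit and the counts of list genes are given with it and without it.

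Levels between genes were compared as RPKM, the CPM per kilobase of exon. Of the 46 genes, 23 averaged at least 1 RPKM over the 6 libraries and 12 at least 10 RPKM. Rarg, a retinoic acid receptor expressed in cartilage, skin and facial mesenchyme, had the highest mean, 75.3 ± 9.65 RPKM (SD, n = 3) in the floxed cells and 60.4 ± 11.9 RPKM in the knock-out cells. Nr2f6, an orphan receptor of the COUP-TF group, averaged 30.3 ± 3.90 RPKM in the floxed cells and 40.2 ± 9.50 RPKM in the knock-out cells. This level is uncertain, since 54.37% of the exon bases of Nr2f6 are shared with Ocel1 on the opposite strand and the strand setting of the counting was not given. Vdr, the vitamin D receptor, averaged 36.1 ± 15.5 RPKM in the floxed cells and 19.2 ± 5.42 RPKM in the knock-out cells, so that its place differed between the genotypes, above Nr2f6 in the floxed cells and below Nr3c1, Nr1h2 and Rxrb in the knock-out cells. Nr3c1, the glucocorticoid receptor, averaged 29 ± 3.87 RPKM and 26.2 ± 6.42 RPKM. Over the 6 libraries Rxrb, a retinoid X receptor, averaged 23.6 RPKM, and Nr1h2, the widely expressed liver X receptor beta, 23.2 RPKM. Ppard, the widely expressed receptor for fatty acids, averaged 17.9 RPKM, and the retinoid X receptor Rxra 17.7 RPKM. Within each genotype, the difference between Rxrb and Nr1h2 and that between Ppard and Rxra were smaller than the SD of either gene. Rorb averaged 1.58 ± 0.369 RPKM in the floxed cells, beside 1.58 RPKM for Nr1h3 and 1.46 RPKM for Nr1h4, and 0.0435 ± 0.00763 RPKM in the knock-out cells.

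**Figure D1:**
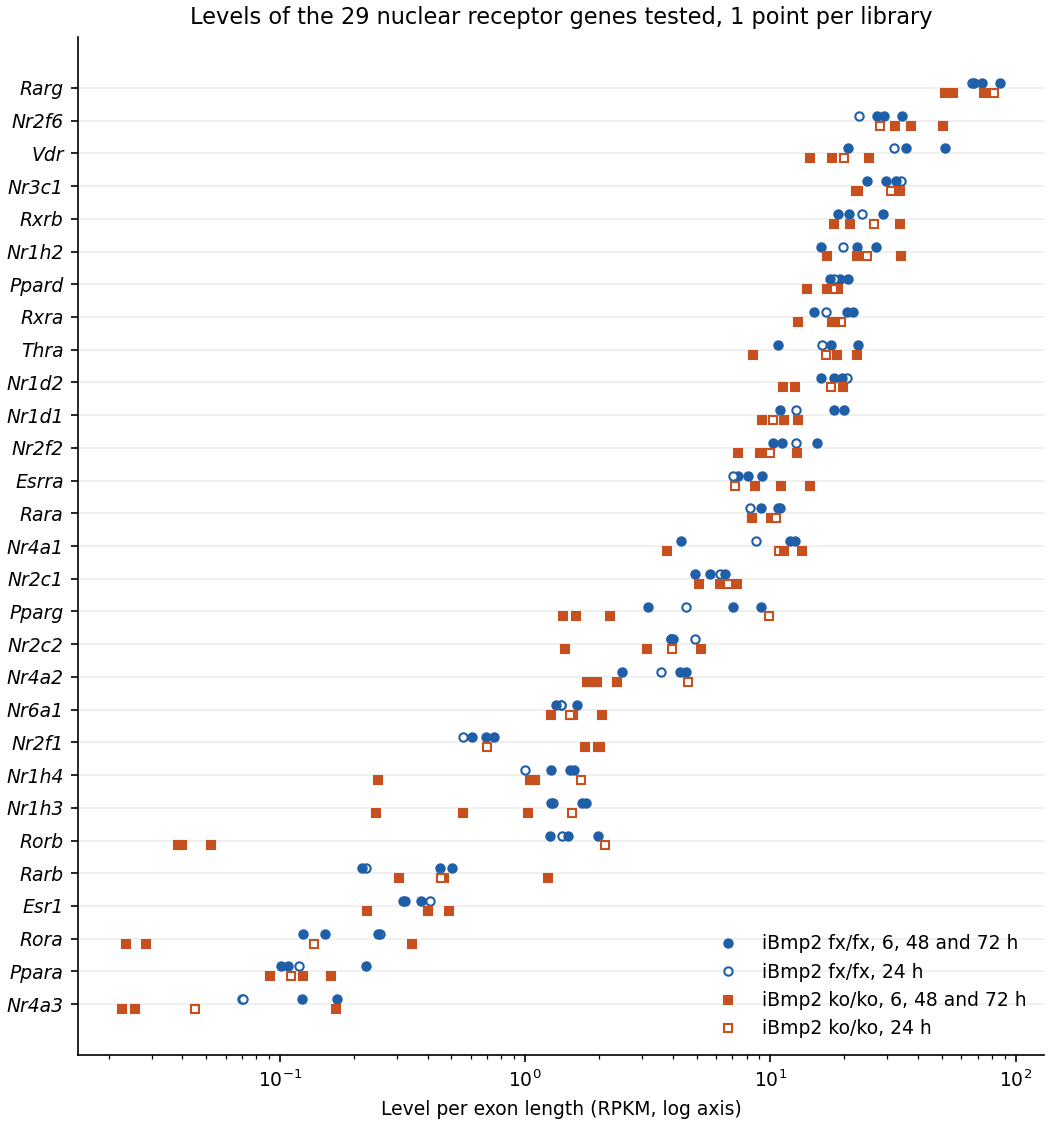
Level of each of the 29 tested nuclear receptor genes in RPKM on a log axis, with 1 point per library, circles for the floxed cells (iBmp2 fx/fx) and squares for the knock-out cells (iBmp2 ko/ko), and open symbols for 24 h. Rarg sits at the top, with means of 75.3 RPKM in the floxed cells and 60.4 RPKM in the knock-out cells, and the filled squares of Rorb sit far to the left of its other points.

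To find nuclear receptor genes that differed between the genotypes, the 3 knock-out libraries were compared with the 3 floxed libraries. Rorb, Pparg and Nr1h3 were lower in the knock-out cells and Nr2f1 was higher at the unadjusted limit, an absolute log2 fold change above 1 with a p under 0.05. These are 4 of the 29 genes that passed the filter on low counts (13.8%), beside 7.35% of all 13121 genes tested. The members were chosen with earlier results of these data known, so the shares given here are no independent test of the family. In the lower direction the count was 3 of 29 (10.3%, beside 4.04% of all genes), and in the higher direction 1 of 29 (3.45%, beside 3.31%). At the adjusted limit, a log2 fold change of at least 1 and an adjusted p (Benjamini-Hochberg) no greater than 0.05, Rorb and Nr2f1 passed, which is 6.9% of the genes beside 2.19% of all genes tested. The culture times paired the libraries, and with culture time as a block Pparg and Nr1h3 passed the adjusted limit as well, 4 of 29 beside 8.45% of all genes, and at the unadjusted limit Nr1h4 joined them, 5 of 29 beside 9.46%. Over all 8 libraries none of the 29 passed the adjusted limit, beside 0.0% of 13053 genes tested with edgeR, and Nr2f1 alone passed the unadjusted limit, beside 3.55% of all genes; at p under 0.05 with any fold there were 3 (Nr1d1, Vdr and Nr2f1), beside 10.2%. With the block over 8 libraries none passed the adjusted limit, beside 0.283%. Without only the library labelled knock-out at 24 h, Rorb, Pparg and Nr2f1 passed the adjusted limit over 7 libraries, beside 3.12% of all genes.

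Over the 29 genes tested the median log2 fold change was -0.20, against 0.03 over all genes. In sign alone, 20 genes had a value below 0 and 9 above, and 19 lay within 0.5 of 0 on the log2 scale. For 6 of the 29 genes (20.7%), the levels of the 3 libraries of a genotype did not overlap those of the other, beside 19.3% of all genes tested. Of these 6, the 5 genes Rorb, Pparg, Nr1h3, Nr1h4 and Nr4a2 were lower in all 3 knock-out libraries, beside 10.5% of all genes, and Nr2f1 was higher, beside 8.76%. Over all 8 libraries none of the 29 genes had groups that did not overlap, beside 3.51% of all genes. Since nothing in the labels says that the libraries came from separate cultures, p-values measure only the spread between these libraries, which includes any change with culture time.

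**Figure D2:**
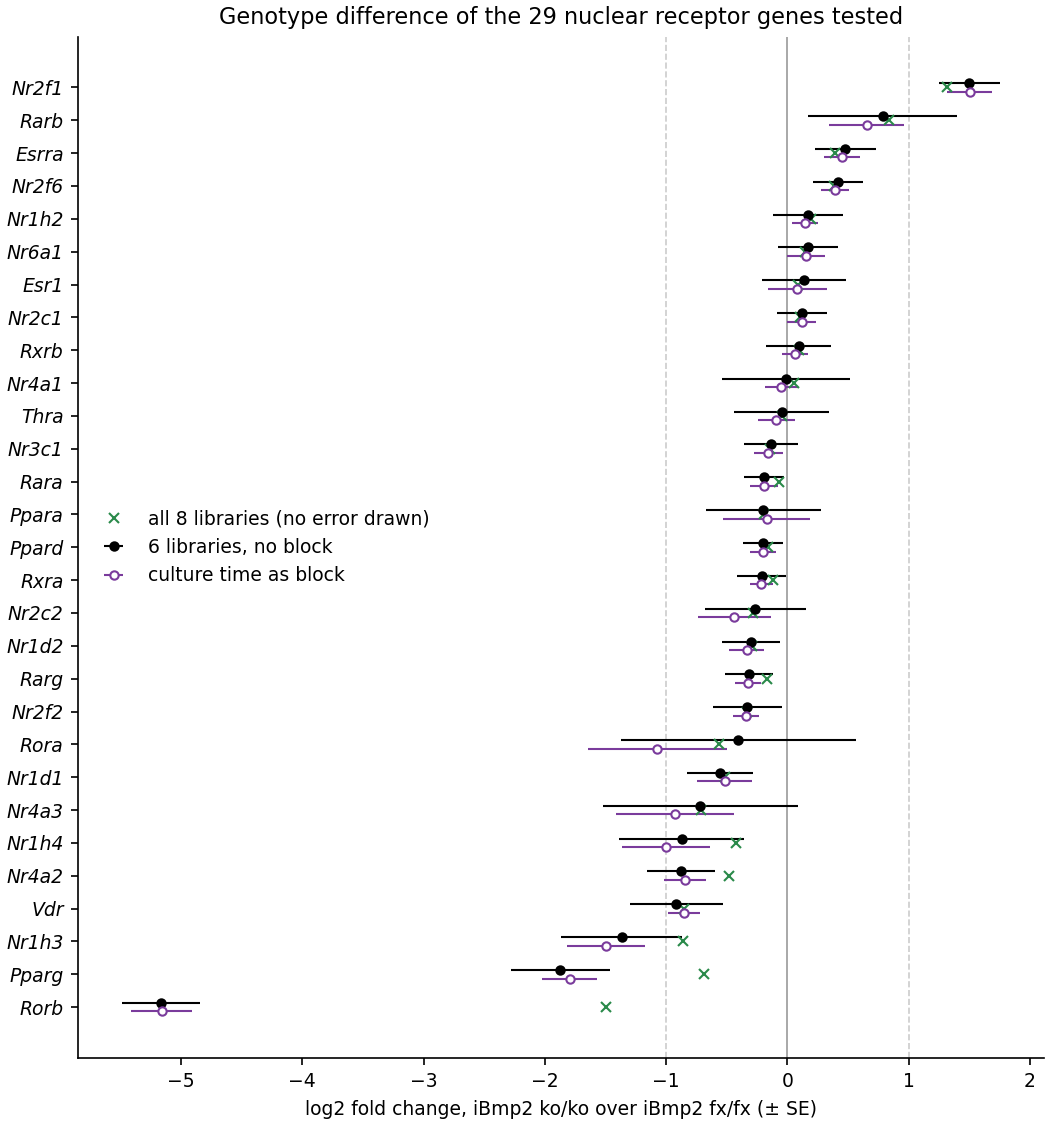
Log2 fold change of each of the 29 tested genes, knock-out over floxed, with its SE, from the 6 libraries (black), with culture time as a block (open) and over all 8 libraries (crosses, no error drawn). Dashed lines mark a log2 fold change of 1 in either direction. Rorb lies at -5.16 and Nr2f1 at 1.5 over 6 libraries, and the cross of Rorb is at -1.5.

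Rorb encodes the retinoid-related orphan receptor beta, a constitutive activator known from the retina, the cortex and the clock, and from bone, where it is low in mature osteoblasts. The gene lies on chromosome 19 of mm9, from 19005095 to 19185686 on the minus strand, with 12 exon blocks in GENCODE M1. In the floxed cells it was at 22.0 CPM at 6 h, 16.5 CPM at 48 h and 14.0 CPM at 72 h. In the knock-out cells it was at 0.442 CPM at 6 h, 0.425 CPM at 48 h and 0.579 CPM at 72 h. The groups were far apart, with 439 to 684 reads in each floxed library against 13 to 15 reads in each knock-out library. The mean was 17.5 ± 4.09 CPM in the floxed cells and 0.482 ± 0.0845 CPM in the knock-out cells (SD, n = 3 each), 36.3-fold lower. In the edgeR quasi-likelihood test the log2 fold change was -5.16 (SE 0.32) with a Benjamini-Hochberg adjusted p of 0.00252. At 24 h the order was the other way, with 15.7 CPM (445 reads) in the floxed library and 23.4 CPM (606 reads) in the library labelled knock-out. That library had the highest level of Rorb of all 8. With both libraries of 24 h included, the log2 fold change was -1.5 and the adjusted p 0.646.

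RefSeq gives Rorb a pair of start sites that are far apart, and the 250 bases before each are shown because the gene had 13 to 15 reads in 3 of the 4 knock-out libraries and its count does not say which start was used. The sequences are from the RefSeq promoter table of GRCm38.p6, were placed on mm9 by exact match, and read 5′ to 3′ on the minus strand. The outer window is chr19:19185687-19185936, with a GC content of 66%, and the inner one is chr19:19075608-19075857, with a GC content of 39.2%.

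Rorb outer start: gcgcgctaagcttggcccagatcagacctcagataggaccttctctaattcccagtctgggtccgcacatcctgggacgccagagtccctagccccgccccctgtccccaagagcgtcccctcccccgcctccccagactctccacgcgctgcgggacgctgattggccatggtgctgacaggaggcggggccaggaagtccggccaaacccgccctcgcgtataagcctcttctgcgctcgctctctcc

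Rorb inner start: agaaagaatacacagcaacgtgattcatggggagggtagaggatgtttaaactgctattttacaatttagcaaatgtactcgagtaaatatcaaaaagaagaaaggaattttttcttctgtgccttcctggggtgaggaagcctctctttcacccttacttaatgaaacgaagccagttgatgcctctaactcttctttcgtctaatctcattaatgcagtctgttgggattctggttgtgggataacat

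Of 3 motifs searched on both strands, AGGTCA (the core of nuclear receptor elements), GGCGCC (a GC-rich core bound by Smads of the BMP pathway) and CACGTG (the E-box of clock factors), none was found in either Rorb window. Over the same 250 bases, 14.024% of all 32851 promoters of the table held AGGTCA, 9.586% GGCGCC and 6.021% CACGTG. Promoters were matched for 42 of the 46 nuclear receptor genes, 63 windows in all, of which 11 held AGGTCA, 12 held GGCGCC and 5 held CACGTG.

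Pparg, the receptor that drives fat cell formation and is held down in bone-forming cells, is at 115311239 to 115440419 of chromosome 6, plus strand. It was at 18.2 CPM at 6 h, 14.0 CPM at 48 h and 6.29 CPM at 72 h in the floxed cells. In the knock-out cells it was at 4.39 CPM at 6 h, 3.20 CPM at 48 h and 2.82 CPM at 72 h. Each knock-out library was below each floxed library, and in both genotypes the level at 72 h was the lowest of the 3 times. The means were 12.8 ± 6.04 CPM and 3.47 ± 0.819 CPM, a 3.69-fold difference. Its log2 fold change of -1.87 (SE 0.41) passed the unadjusted limit and not the adjusted one, with an adjusted p of 0.0786. With culture time as a block the log2 fold change was -1.80 (SE 0.23) and the adjusted p 0.00216. At 24 h Pparg was at 9.0 CPM in the floxed library and 19.5 CPM in the library labelled knock-out, the highest value of all 8. Over 8 libraries the log2 fold change was -0.69 with an adjusted p of 0.689.

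The 250 bases before the upstream RefSeq start of Pparg, chr6:115310912-115311161 on the plus strand of mm9 with a GC content of 82.4%, are shown beside those of Rorb. Of the windows of the 3 RefSeq starts of Pparg it was chosen after the search because it held both a nuclear receptor and a Smad core. The next window downstream held AGGTCA only, and the last held none of the motifs. Capitals mark AGGTCA at position -28 and GGCGCC at position -227, both counted from the start. A match is a string of letters and not evidence of binding.

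Pparg upstream start: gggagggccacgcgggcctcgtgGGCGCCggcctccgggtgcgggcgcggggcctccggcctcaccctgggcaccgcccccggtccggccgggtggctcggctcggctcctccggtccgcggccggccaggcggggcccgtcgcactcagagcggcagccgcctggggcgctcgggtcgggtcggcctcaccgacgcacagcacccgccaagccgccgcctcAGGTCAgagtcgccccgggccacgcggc

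The receptors for oxysterols and bile acids are described next. Nr1h3, the liver X receptor alpha that activates cholesterol efflux genes, was at 4.28 CPM at 6 h, 4.44 CPM at 48 h and 3.19 CPM at 72 h in the floxed cells. In the knock-out cells it was at 1.40 CPM at 6 h, 2.58 CPM at 48 h and 0.618 CPM at 72 h. The groups did not overlap, and the means were 3.97 ± 0.678 CPM and 1.53 ± 0.990 CPM, a 2.59-fold difference. Nr1h3 passed the unadjusted limit with a log2 fold change of -1.37 (SE 0.50), with an adjusted p of 0.278. With culture time as a block it was -1.49 (SE 0.32) with an adjusted p of 0.0159. At 24 h Nr1h3 was at 3.25 CPM in the floxed library and 3.89 CPM in the library labelled knock-out, and over 8 libraries the log2 fold change was -0.86 with an adjusted p of 0.533. The gene lies on chromosome 2 from 91024218 to 91042991.

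Nr1h4, the bile acid receptor, was at 3.63 CPM at 6 h, 3.52 CPM at 48 h and 2.94 CPM at 72 h in the floxed cells. It was at 2.52 CPM at 6 h, 2.42 CPM at 48 h and 0.579 CPM at 72 h in the knock-out cells. The groups did not overlap, although the libraries of 6 and 48 h were close, and the lowest value was that of 72 h. Without the block the log2 fold change of Nr1h4 was -0.87 (SE 0.52) with an adjusted p of 0.524, and with it -1.0 (SE 0.36), which passed the unadjusted limit and not the adjusted one (adjusted p 0.0856). At 24 h the values were 2.29 CPM in the floxed library and 3.89 CPM in the library labelled knock-out, and with them the log2 fold change was -0.42 with an adjusted p of 0.736. Nr1h2, the other liver X receptor, was at 90.9, 75.5 and 53.9 CPM at 6, 48 and 72 h in the floxed cells. In the knock-out cells it was at 115, 75.6 and 57.0 CPM at these times, and at 24 h the values were 66.6 CPM in the floxed library and 83.3 CPM in the library labelled knock-out. The genotypes overlapped and nearly coincided at 48 h, with a log2 fold change of 0.17 and an adjusted p of 0.857, which turned to -0.12 without the knock-out library of 6 h.

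Nr2f1, the COUP-TFI orphan receptor of neural crest and neural development and mostly a repressor, was the nuclear receptor gene that passed the limits in the higher direction. It lies on chromosome 13 from 78328234 to 78339018 on the minus strand. It was at 3.28 CPM at 6 h, 2.87 CPM at 48 h and 3.55 CPM at 72 h in the floxed cells. In the knock-out cells it was at 8.34 CPM at 6 h, 9.45 CPM at 48 h and 9.62 CPM at 72 h. The groups were well separated and each was tight, with means of 3.23 ± 0.341 CPM and 9.13 ± 0.695 CPM, 2.83-fold higher in the knock-out cells. In the edgeR test the log2 fold change was 1.5 (SE 0.25) with an adjusted p of 0.0306. Leaving out any of the 6 libraries in turn gave log2 fold changes of 1.41 to 1.60, but adjusted p-values of 0.0526 to 0.195, so the adjusted call needs all 6 libraries. The summed level of the 6 glia and neuron markers did not overlap between the genotypes, nor did the levels of 19.3% of all single genes tested. The sum was 21.4 to 42.1 CPM in the floxed libraries and 44.9 to 58.6 CPM in the knock-out libraries, and 26.5 and 21.0 CPM at 24 h. None of the 6 markers passed the unadjusted limit in either direction. Of these markers, Tubb3 held most of the sum, Sox10, Snap25 and Elavl4 had at most 3 counts in every library, 2 of 6 averaged 1 CPM or more, and their part in the level of Nr2f1 was not tested. At 24 h Nr2f1 was at 2.65 CPM in the floxed library and 3.31 CPM in the library labelled knock-out, and over 8 libraries the log2 fold change was 1.32 with an adjusted p of 0.483.

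A long noncoding RNA, A830082K12Rik, starts on the opposite strand and shares 103 exon bases with Nr2f1, 2.17% of its exons. It was looked up after the values of Nr2f1 were seen. It averaged 2.38 ± 0.80 CPM in the floxed cells and 5.80 ± 1.45 CPM in the knock-out cells. Its log2 fold change was 1.28 (SE 0.36) with an adjusted p of 0.224, and 1.30 with an adjusted p of 0.0146 with culture time as a block. The unadjusted limit, which it passed, was passed by 6.72% of the 1339 lncRNAs tested, and the adjusted limit with the block by 5.83%. At 24 h it was at 3.07 CPM in the floxed library and 1.58 CPM in the library labelled knock-out. Another lncRNA on that strand, Gm8327, shares 20 exon bases with Nr2f1 and passed no limit. In edgeR its log2 fold change was 0.98 (SE 0.58) with an adjusted p of 0.682, and of 0.215 with the block. With the strand setting of the counting not given, reads of the shared bases cannot be assigned to Nr2f1 or to these lncRNAs. Nr2f2, the paralogue of Nr2f1 and a regulator of mesenchymal cell fate, was at 49.6, 54.1 and 75.5 CPM at 6, 48 and 72 h in the floxed cells and at 35.8, 43.9 and 62.6 CPM in the knock-out cells. It was lower in the knock-out library at each of these times, but the genotypes overlapped, with a log2 fold change of -0.33 and an adjusted p of 0.696 (0.0559 with the block).

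**Figure D3:**
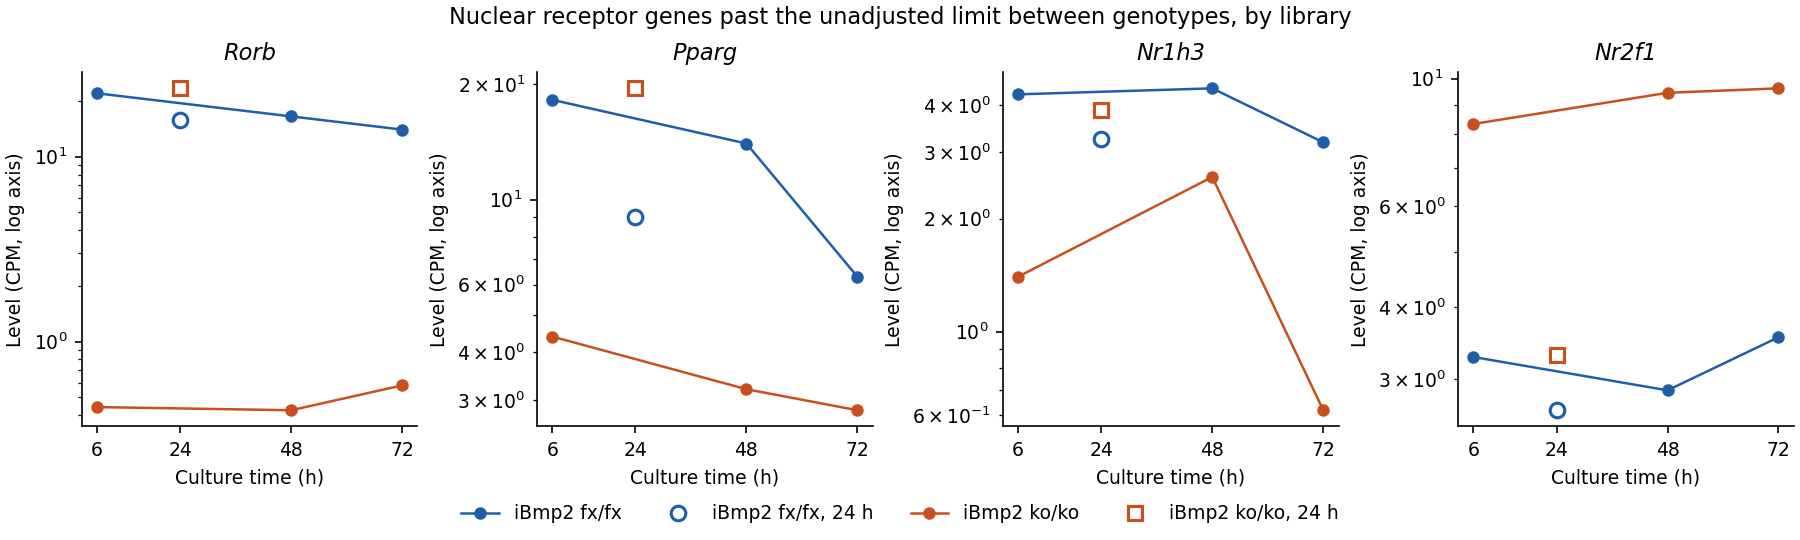
Level in CPM (log axis) against culture time in h for the 4 nuclear receptor genes past the unadjusted limit, with blue for floxed (iBmp2 fx/fx), orange for knock-out (iBmp2 ko/ko), lines through 6, 48 and 72 h, and open symbols for 24 h. In each panel the open square, the library labelled knock-out at 24 h, lies nearer to the blue points than to the orange ones, at 23.4 CPM for Rorb and 3.31 CPM for Nr2f1.

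Vdr, which mediates the action of calcitriol and is expressed in odontoblasts, was at 117 CPM at 6 h, 201 CPM at 48 h and 292 CPM at 72 h in the floxed cells. It was at 82.0 CPM at 6 h, 101 CPM at 48 h and 142 CPM at 72 h in the knock-out cells. At each time the knock-out library was the lower, also at 24 h (181 CPM against 113 CPM), although the groups overlapped because both genotypes had more at later times. Vdr had a log2 fold change of -0.91 (SE 0.38) with an adjusted p of 0.344. With culture time as a block it was -0.85 (SE 0.13) with an adjusted p of 0.00454, below the fold limit. Over all 8 libraries the log2 fold change was nearly the same, -0.86, with an adjusted p of 0.483.

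Among the Nr4a receptors, immediate early orphan receptors without a known ligand pocket, Nr4a2 was at 17.4 CPM at 6 h, 18.3 CPM at 48 h and 10.1 CPM at 72 h in the floxed cells. In the knock-out cells it was at 7.93 CPM at 6 h, 9.58 CPM at 48 h and 7.26 CPM at 72 h. The groups did not overlap, but the highest knock-out library was close to the lowest floxed library. Nr4a2 had a log2 fold change of -0.87 (SE 0.28) with an adjusted p of 0.223, and -0.85 with an adjusted p of 0.0138 with the block. At 24 h Nr4a2 was at 14.5 CPM in the floxed library and 18.8 CPM in the library labelled knock-out. Nr4a1 spanned 9.35 to 33.2 CPM over the 6 libraries, and in both genotypes its level at 72 h was the lowest (log2 fold change -0.01, adjusted p 0.997). Nr4a3 was low, at 0.136 to 1.02 CPM, and its highest value in each genotype was that of 48 h.

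Nr2f6 was at 103 CPM at 6 h, 86.7 CPM at 48 h and 80.9 CPM at 72 h in the floxed cells. It was at 151, 96.3 and 112 CPM at the same times in the knock-out cells. The knock-out library was the higher at each time, including 24 h (68.4 CPM against 83.8 CPM), with overlapping groups. The difference on the log2 scale was 0.41 (SE 0.21) with an adjusted p of 0.439, and 0.40 (SE 0.12) with an adjusted p of 0.0451 with the block, below the fold limit. With Vdr and Nr4a2, it brought the genes with a blocked adjusted p of at most 0.05 at any fold to 7 of 29 (24.1%), beside 22.7% of all genes tested.

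None of the retinoid receptors tested passed a limit between the genotypes. Rarg was at 354, 298 and 277 CPM at 6, 48 and 72 h in the floxed cells and at 304, 229 and 212 CPM in the knock-out cells. It was lower in the knock-out library at each of the 3 times with overlapping groups, and at 24 h the order was the other way (272 CPM against 335 CPM). Its log2 fold change was -0.32 (SE 0.20) with an adjusted p of 0.555. Rxra, the partner of many of the other receptors, was at 112, 118 and 82.2 CPM in the floxed cells and 97.4, 100 and 70.4 CPM in the knock-out cells, with a log2 fold change of -0.21 and an adjusted p of 0.729. Its groups overlapped, and at 24 h the values were 91.8 and 106 CPM. Rxrb was at 106, 77.6 and 69.4 CPM in the floxed cells and 125, 77.8 and 67.1 CPM in the knock-out cells, and at 24 h at 87.6 and 97.5 CPM. The genotypes of Rxrb nearly coincided at 48 h, and its log2 fold change of 0.09 (adjusted p 0.922) turned negative when the floxed library of 72 h or the knock-out library of 6 h was left out. Rara, the widely expressed retinoic acid receptor alpha, spanned 38.5 to 49.9 CPM over the 6 libraries. Rarb, which is itself induced by retinoic acid, spanned 0.710 to 4.06 CPM, with the highest value in the knock-out library of 72 h and an adjusted p of 0.656.

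Ppard was at 89.1, 96.3 and 80.8 CPM at 6, 48 and 72 h in the floxed cells and 87.2, 79.0 and 65.4 CPM in the knock-out cells, and at 24 h at 83.9 and 83.0 CPM. The groups overlapped, with a log2 fold change of -0.20 (SE 0.17) and an adjusted p of 0.677. Ppara, the receptor that drives fatty acid oxidation in liver, was at 0.348 to 0.864 CPM. Nr3c1 was at 220, 241 and 184 CPM in the floxed cells and 166, 250 and 169 CPM in the knock-out cells, with the highest value of each genotype at 48 h among the 3 times, and at 24 h the values were 252 and 231 CPM. Its log2 fold change was -0.14 (SE 0.22) with an adjusted p of 0.852.

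Thra and Nr1d1 are a pair that overlap tail to tail on chromosome 11, Thra from 98601952 to 98630320 on the plus strand and Nr1d1 from 98629246 to 98636647 on the minus strand, sharing 263 exon bases. These are 5.7% of the exon bases of Thra, the thyroid hormone receptor alpha, and 8.42% of those of Nr1d1, the Rev-erb alpha repressor of the clock, and reads there cannot be assigned without the strand setting. Thra was at 81.7, 105 and 49.4 CPM at 6, 48 and 72 h in the floxed cells and 104, 85.8 and 39.1 CPM in the knock-out cells, and at 24 h at 75.1 and 77.4 CPM. The lowest value of each genotype was that of 72 h, and the genotypes overlapped (log2 fold change -0.05, SE 0.39, adjusted p 0.976). Nr1d1 was at 34.1, 62.5 and 56.8 CPM in the floxed cells and 40.4, 35.4 and 28.9 CPM in the knock-out cells. It was higher in the knock-out library at 6 h and lower at 48 and 72 h, with a log2 fold change of -0.56 (SE 0.27) and an adjusted p of 0.429. Nr1d2, the Rev-erb beta paralogue, spanned 56.6 to 99.1 CPM, and Rora, the opposing activator, 0.309 to 4.51 CPM. Rora was low in the knock-out libraries of 6 and 72 h, at 0.374 and 0.309 CPM, and highest in that of 48 h, at 4.51 CPM, so its genotypes overlapped.

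Of the remaining genes tested, Nr2c1 and Nr2c2, the testicular receptors that bind AGGTCA repeats as repressors, spanned 22.6 to 33.6 CPM and 13.3 to 47.7 CPM, and 38.6% of the exon bases of Nr2c2 are shared with Mrps25 on the opposite strand. Esrra, the estrogen-related receptor that drives mitochondrial genes, spanned 18.8 to 36.7 CPM with a log2 fold change of 0.48 and an adjusted p of 0.47. Esr1, the estrogen receptor alpha, spanned 3.10 to 6.67 CPM. Nr6a1, the germ cell nuclear factor, spanned 9.54 to 15.4 CPM. None of these 5 passed a limit, and each overlapped between the genotypes.

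The other 17 genes did not pass the filter on low counts and were not tested. Rxrg, Hnf4a, Hnf4g and Nr0b1 had no read in any library, and 11 more had at most 3 counts in every library, namely Nr1i2, Nr1i3, Nr2e1, Nr2e3, Esr2, Esrrb, Esrrg, Pgr, Nr5a1, Nr5a2 and Nr0b2. Thrb, the thyroid hormone receptor beta, reached 9 counts and Nr3c2, the mineralocorticoid receptor, 6 counts. A count of 0 allows up to 3 counts, which is 0.0925 to 0.1159 CPM depending on the library and covers counting error only. Many of these are receptors of liver, gut, retina, gonad or adrenal.

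**Figure D4:**
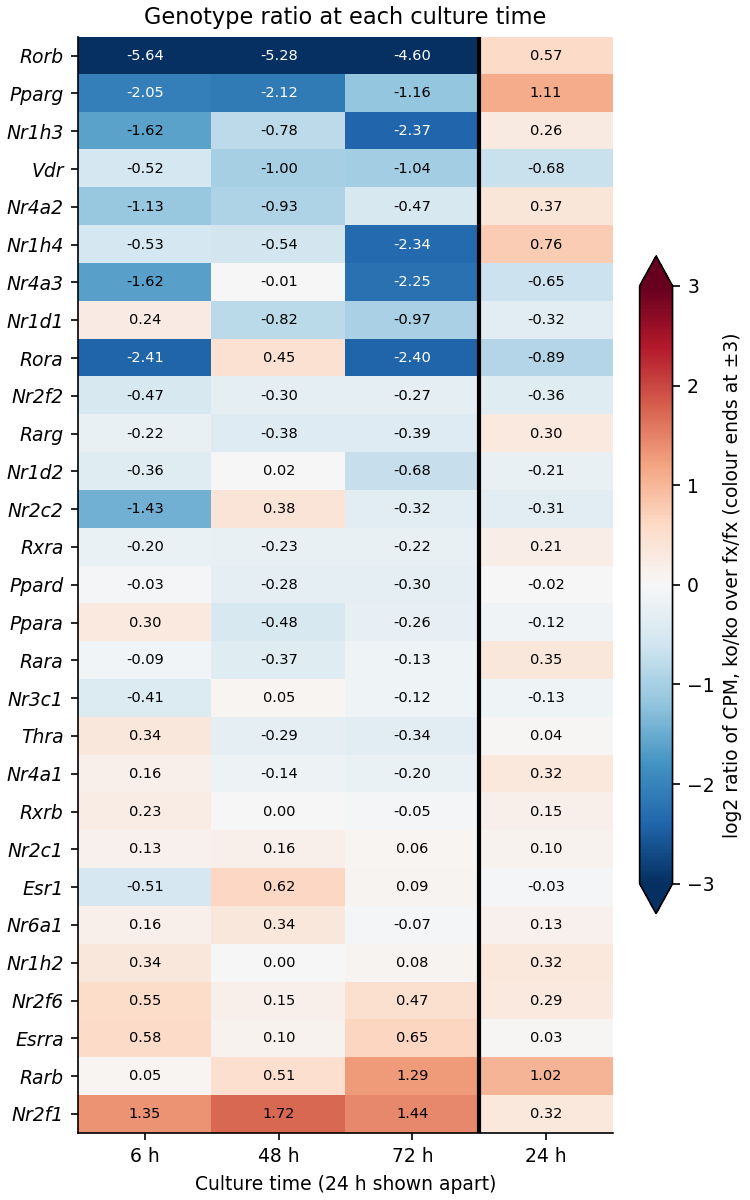
Log2 ratio of CPM, knock-out over floxed, for the 29 tested genes at 6, 48 and 72 h, with 24 h to the right of the black line and the number printed in each cell. Rorb is at -5.64, -5.28 and -4.60 at the 3 times and at 0.57 at 24 h, while Vdr is below 0 in all 4 columns.

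By culture time, the median absolute log2 ratio between the genotypes over the 29 genes was 0.412 at 6 h, 0.373 at 48 h and 0.388 at 72 h, beside 0.345, 0.263 and 0.279 over all genes tested. It was 0.311 at 24 h, beside 0.257 over all genes. At 24 h the largest absolute log2 ratio was 1.11, that of Pparg, against 5.64 for Rorb at 6 h. All 4 genes past the unadjusted limit were nearer to the floxed mean in the library labelled knock-out at 24 h. In sign, 11 of the 29 genes were lower in that library than in the floxed library of 24 h and 18 were higher.

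Culture time was the other factor, tested as a trend on the log2 of hours over both genotypes and given as the fitted log2 change from 6 to 72 h. None of the 29 genes passed an adjusted p of 0.05 with edgeR, as none of all 13121 genes did (0.0%). At p under 0.05 there were 4 of 29 (13.8%), beside 21.1% of all genes. DESeq2 gave 3 of 29 with an adjusted p of at most 0.05 (10.3%), beside 7.51% of all genes. Vdr had a fitted change of 0.99 (SE 0.24), with an adjusted p of 0.181 in edgeR and 0.0117 in DESeq2. Rxrb had one of -0.67 (SE 0.15), with adjusted p-values of 0.178 and 0.0157, and Nr1h2 one of -0.70 (SE 0.19), with 0.188 and 0.0497. In both genotypes Vdr was higher, and Rxrb and Nr1h2 were lower, at each later time of the 3. The fourth was Nr2f2, at 0.63 (SE 0.23), with an adjusted p of 0.211 in edgeR and 0.122 in DESeq2.

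Whether a time trend differed between the genotypes was tested as an interaction. No gene of the 29 passed an adjusted p of 0.05 with edgeR or DESeq2, beside 0.0% of all genes. At p under 0.05 there was 1 of 29 (3.45%), beside 0.48% of all genes. This was Nr1d1, whose fitted change from 6 to 72 h differed by -1.25 on the log2 scale, knock-out minus floxed (adjusted p 1.0). At 24 h Nr1d1 was at 39.7 CPM in the floxed library and 31.9 CPM in the library labelled knock-out, each within the range of the other libraries of its genotype.

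**Figure D5:**
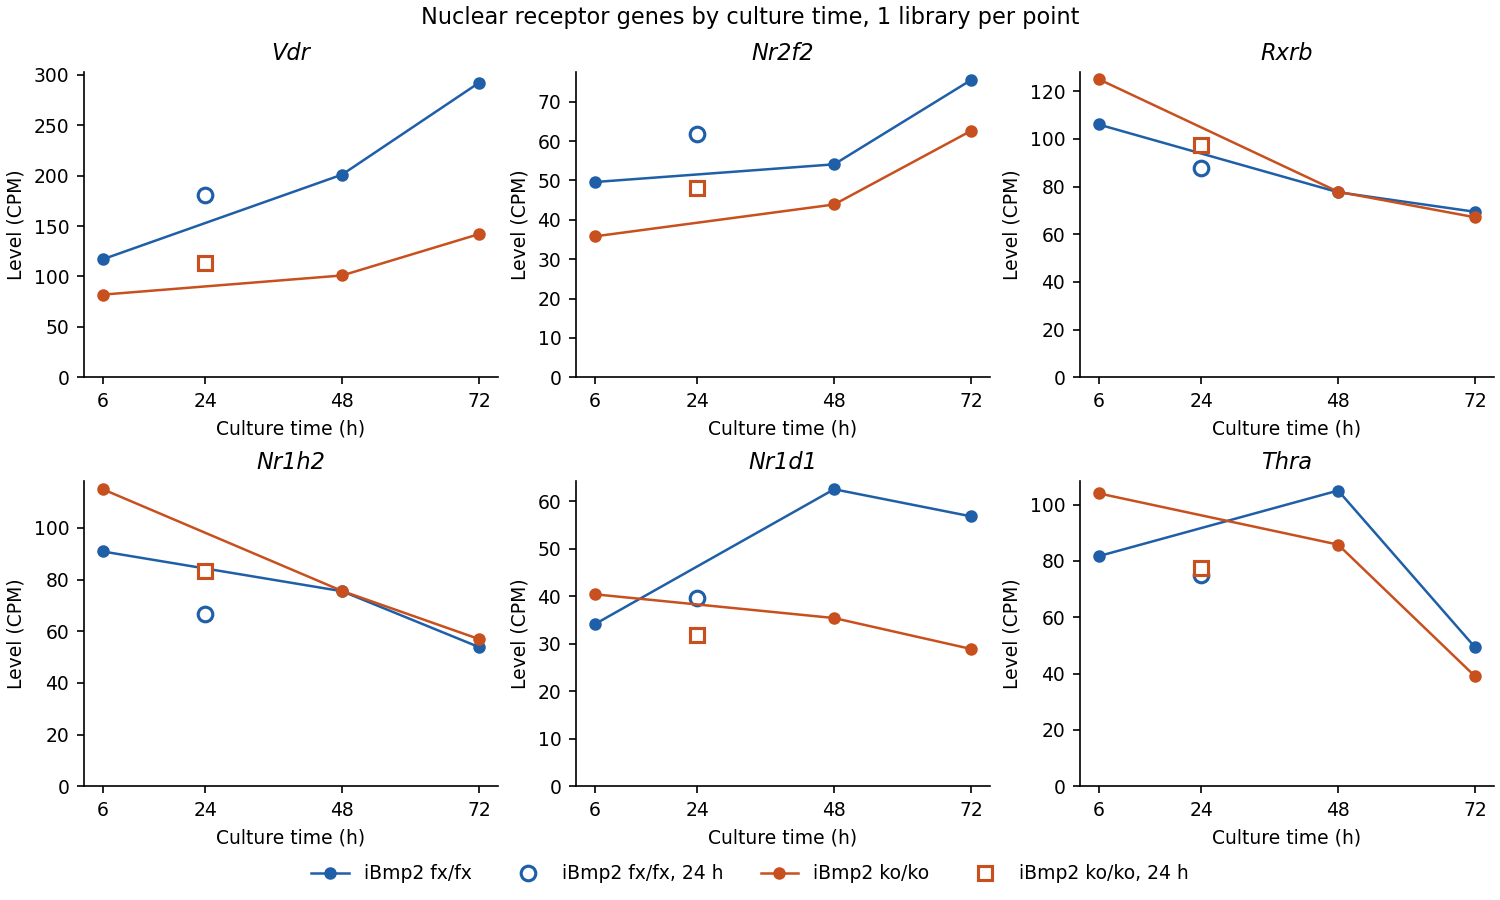
Level in CPM against culture time in h for 6 nuclear receptor genes, with blue for floxed (iBmp2 fx/fx), orange for knock-out (iBmp2 ko/ko), lines through 6, 48 and 72 h, and open symbols for 24 h. Vdr and Nr2f2 are highest at 72 h in both genotypes, Rxrb and Nr1h2 are lowest there, and the lines of Nr1d1 cross between 6 and 48 h.

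Genes that work with these receptors were taken from 8 lists. Of the LXR targets, 11 of 13 were tested, and 5 were lower and none higher at the unadjusted limit, Nr1h3 itself among them, beside 4.04% of all genes in the lower direction. The median log2 fold change of the list was -0.97, beside 0.03 over all genes. None passed the adjusted limit without the block, and with culture time as a block 6 were lower at that limit, beside 4.67% of all genes. Over all 8 libraries 1 of the list, Apoe, was lower at the unadjusted limit, beside 1.47% of all genes, and the median was -0.43, beside 0.03 over all genes. Abcg1, a cholesterol efflux pump, averaged 5.26 ± 2.05 CPM in the floxed cells and 1.48 ± 0.560 CPM in the knock-out cells, a log2 fold change of -1.82 (adjusted p 0.0888, with the block 0.00152). Abca1, the efflux pump that loads apolipoproteins, averaged 65.3 ± 14.4 CPM and 27.2 ± 17.0 CPM, a log2 fold change of -1.25 (adjusted p 0.287, with the block 0.0186). Mylip, which degrades the LDL receptor, and Apoe, an apolipoprotein, had log2 fold changes of -1.12 and -1.17. At 24 h Abcg1 was at 4.66 CPM in the floxed library and 6.71 CPM in the library labelled knock-out.

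These targets are also expressed by macrophages. The summed level of the 7 blood and macrophage markers was 4.18 to 14.2 CPM in the floxed libraries and 2.74 to 3.53 CPM in the knock-out libraries, and 5.58 and 6.28 CPM at 24 h. Of the 7, Cd68 and Csf1r were lower at the unadjusted limit, Cd68 at 6.87 ± 4.79 CPM in the floxed cells against 2.53 ± 0.36 CPM in the knock-out cells and Csf1r at 1.3 ± 0.476 CPM against 0.417 ± 0.175 CPM. At 24 h Cd68 was at 4.8 and 5.67 CPM and Csf1r at 0.671 and 0.578 CPM. The other 5, Ptprc, Emr1, Itgam, Cd3e and Hbb-b1, had at most 3 counts in every library. Whether the cultures held any macrophages was not tested, nor was any part of such cells in the result.

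In the list of retinoid supply and retinoic acid response, 13 of 19 genes were tested, 3 were lower (beside 4.04% of all genes) and none higher at the unadjusted limit, and the median log2 fold change was 0.01. None passed the adjusted limit without the block, and all 3 did with it, beside 4.67% of all genes. With the 24 h libraries included, 3 were lower at the unadjusted limit, beside 1.47% of all genes. Cyp26b1, which breaks down retinoic acid, averaged 4.96 ± 1.63 CPM in the floxed cells and 0.749 ± 0.489 CPM in the knock-out cells, a log2 fold change of -2.73 (SE 0.54, adjusted p 0.0553, with the block 0.000699). Rbp4, the plasma carrier of retinol, was at or under 3 counts in each knock-out library of the 3 times and at least 3.89-fold lower (adjusted p 0.0522). Stra6, the membrane receptor of that carrier, had a log2 fold change of -2.39 (adjusted p 0.144). At 24 h Cyp26b1 was at 3.92 CPM in the floxed library and 4.32 CPM in the library labelled knock-out.

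Of the PPAR targets, 13 of 18 were tested and Lpl alone passed the unadjusted limit, which it passed upward (beside 3.31% of all genes). It also passed the adjusted limit, beside 2.19% of all genes in both directions, and the median of the list was 0.06. Lpl, the lipoprotein lipase, averaged 9.97 ± 2.73 CPM in the floxed cells and 108 ± 29.9 CPM in the knock-out cells, a log2 fold change of 3.45 (SE 0.30, adjusted p 0.00534). At 24 h it was at 8.83 and 11.1 CPM. With the block, 2 genes of the list were higher (beside 3.78% of all genes) and 2 lower (beside 4.67%) at the adjusted limit. Over all 8 libraries 1 was higher at the unadjusted limit, beside 2.08% of all genes, and 1 lower, beside 1.47%. In the list of vitamin D and thyroid hormone supply and targets, 10 of 16 were tested, and 1 was lower at both limits. Of all genes, 4.04% were lower at the unadjusted limit, and 2.19% passed the adjusted limit in both directions. The median of the list was -0.54, also with the lower gene set to its bound. With the block, 1 gene of the list was lower at the adjusted limit, beside 4.67% of all genes. Cyp2r1, a vitamin D hydroxylase, was at or under 3 counts in each knock-out library of the 3 times and at least 6.34-fold lower (adjusted p 0.0201), and at 24 h it was at 1.2 CPM in the floxed library and 0.694 CPM in the library labelled knock-out. Over the 8 libraries 1 gene of this list was lower at the unadjusted limit, beside 1.47% of all genes.

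The other 4 lists had 2 genes past the unadjusted limit, beside 7.35% of all genes. Of 13 glucocorticoid receptor targets tested, Cdkn1c, a cell cycle inhibitor, passed the unadjusted limit, at 6.87 ± 4.65 CPM in the floxed cells and 29 ± 25.9 CPM in the knock-out cells (adjusted p 0.344, with the block 0.000961), and the median of the list was -0.08. Of 18 clock genes tested, Hlf, an output factor of the clock, passed it, at 1.39 ± 0.673 CPM and 3.17 ± 1.08 CPM (adjusted p 0.354, with the block 0.0178), and the median was -0.23. At 24 h the order of Hlf was the reverse, 1.84 CPM in the floxed library and 0.771 CPM in the library labelled knock-out, and with these libraries its log2 fold change was 0.78 and it did not pass. None of the 22 coregulators or the 10 steroid supply genes tested passed the unadjusted limit, and their medians were -0.24 and 0.32. With the block, 1 of the 22 coregulators was lower at the adjusted limit, no steroid supply gene passed it, and of the 18 clock genes Clock, a core activator of the clock, was lower and Hlf higher, beside 4.67% of all genes lower and 3.78% higher. The blocked log2 fold change of Clock was -1.03, with an adjusted p of 0.00498. When the 24 h libraries were added, 1 glucocorticoid receptor target, Cdkn1c (5.76 CPM in the floxed library of 24 h and 10.9 CPM in the library labelled knock-out), was higher at the unadjusted limit, beside 2.08% of all genes, and no clock, coregulator or steroid supply gene passed it.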

How the data were processed

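RNA-seq libraries of total RNA were aligned by the authors to mm9 with TopHat2 2.0.8b after CASAVA 1.8.2, per the labels, and counted with HTSeq. The authors deposited raw read counts for 22609 gene symbols and 3840 lncRNA symbols in each of 8 libraries. The annotation and strand setting were not given in the sources used here. The labels name unpaired reads and the methods paired ones, and the design text gives 8 h in place of 6 h. The 5 HTSeq counter lines, 51.99 to 58.96% of alignments, were left out, so near-identical genes lose reads. Precision rests on 25890110 to 32415665 counted reads per library.

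CPM are counts per 1000000 reads counted on genes. RPKM use the union exon length of GENCODE M1 on mm9, found for 95.7% of symbols. Genotype was tested with edgeR 4.0.16 in R 4.3.3 (TMM, its filter on low counts, quasi-likelihood test, Benjamini-Hochberg adjustment over all 13121 genes) on the 6 libraries of 6, 48 and 72 h, culture times serving as replicates. Time was tested on log2 hours with genotype as a covariate. lncRNA counts used the library sizes of the gene table. Deviations from the genotype mean correlated at 0.73 (6 h), 0.57 (48 h) and 0.87 (72 h) between libraries of the same time, so culture time from the labels was taken as a pairing and used as a block in an alternative. Other alternatives were all 8 libraries, 7 libraries, limma 3.58.1 (log2 CPM with an offset of 0.5, log2 RPKM with 0.1), DESeq2 1.42.0, upper-quartile factors, other filters, time in hours, and leaving out each library. Scripts were tested on simulated data. Promoters were read from a RefSeq table, and a window overlapping an exon was not printed. Figures used Python 3.11.15 with matplotlib 3.10.9, pandas 2.3.3 and numpy 2.4.6.

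The members and lists were chosen with earlier results of these data known. Values in every library are given for the genes past the unadjusted limit with or without the block, the 8 with the highest mean RPKM, and Rorb, Nr1d1 and Thra. Vdr, Nr4a2, Nr2f2 and the genes near Rorb and Nr2f1 were described further after their values were seen. In each list, the 2 largest rises and the 2 largest falls past the unadjusted limit are named, except that a rise in the list of vitamin D and thyroid hormone genes is not reported here. Abca1, Mylip, Apoe, Stra6 and Clock were named beyond this rule, after their values were seen.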

Additional observations from a re-analysis of the deposited data

Results flagged for a closer look

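In 6 of 58 groups of 4 libraries (29 genes in each genotype), the gap of the highest or lowest library to the next, over the range of the group, was above the critical value of Dixon's test. The nominal rate of the test is about 1 in 20 groups of replicates. The 4 libraries of a group are 4 culture times and not replicates, and the share over all genes tested is not given here. The count can therefore not be read as an excess for these genes. Rorb was at 23.4 CPM in the library labelled knock-out at 24 h, where the other knock-out libraries were at 0.425 to 0.579 CPM. Pparg was at 19.5 CPM in the same library and at 2.82 to 4.39 CPM in the others. Rarb was at 4.06 CPM in the knock-out library of 72 h and at 1.01 to 1.53 CPM in the others. Nr4a3 was at 1.01 CPM in the knock-out library of 48 h and at 0.136 to 0.27 CPM in the others. Ppara was at 0.864 CPM in the floxed library of 48 h and at 0.386 to 0.459 CPM in the others. Nr2c2 was at 44.9 CPM in the floxed library of 24 h and at 35.9 to 36.6 CPM in the others. The library labelled knock-out at 24 h accounts for 2 of the 6.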

How the results depend on the processing

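With culture time as a replicate block, the count of nuclear receptor genes at the adjusted limit went from 2 to 4 over 6 libraries and to 0 over 8, and that of list genes at the unadjusted limit from 12 to 19 over 6. Over 6 libraries the share of all genes rose with the block as well, from 2.19% to 8.45% at the adjusted limit and from 7.35% to 9.46% at the unadjusted one. Over all 8 libraries without the block the counts were 1 at the unadjusted limit (4 over 6 libraries) and 0 at the adjusted one. Leaving out each library in turn gave 3 to 6 at the unadjusted limit, 1 to 2 at the adjusted one, 0 for time and 8 to 14 for list genes, which numbered 9 over 8 libraries and 13 over 7. For the fits with a library left out in turn, the share over all genes is not given here. DESeq2 gave 3 genes for time, where edgeR gave 0. The log2 fold change of Rorb was -1.5 over 8 libraries, -3.81 with the replicate block over 8 and -5.36 to -5.0 with a library left out, with adjusted p-values of 0.00171 to 0.0405 in the last case. That of Nr2f1 was 1.32, 1.22 and 1.41 to 1.60. Among the 15 named genes, signs turned for 3 when a library was left out. Rxrb came to -0.01 without floxed at 72 h and -0.20 without knock-out at 6 h, Thra to 0.21 without floxed at 48 h and 0.23 without knock-out at 72 h, and Nr1h2 to -0.12 without knock-out at 6 h. Over the libraries left out in turn, Rxrb ranged from -0.20 to 0.25, Thra from -0.32 to 0.23 and Nr1h2 from -0.12 to 0.34. The cause was not tested. Of 240 values of 15 named genes under alternatives, 220 kept their direction and side of the adjusted limit, 10 lost the call, 5 gained it and 5 turned sign. Pparg gained it over 7 libraries, with the block, in DESeq2 and without floxed at 72 h.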

Other observations

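Genes within 1 Mb of Rorb were looked up after its values were seen, and all 5 were tested. Trpm6, a magnesium channel, averaged 1.34 ± 0.717 CPM in the floxed cells and 0.637 ± 0.128 CPM in the knock-out cells, with an edgeR log2 fold change of -1.06 (SE 0.46, adjusted p 0.368). Ostf1, an osteoclast stimulating factor, averaged 87.9 ± 3.85 CPM and 109 ± 12 CPM, with one of 0.32 (adjusted p 0.433). BC016495, 2410127L17Rik and D030056L22Rik had log2 fold changes of 0.61, 0.26 and 0.29, with adjusted p-values of 0.435, 0.861 and 0.682. None of the 5 passed the unadjusted limit. With culture time as a block BC016495 had an adjusted p of 0.0377. No neighbour had a difference near the -5.16 of Rorb.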
